A study of Rattus norvegicus with 13 samples.

Results

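The secretory machinery of the endoplasmic reticulum (ER) and Golgi was followed in rat cortical axons through 64 genes, measured by 96 probe sets, out of 14217 genes that could be named and 31099 probe sets on the array. Membership was set by gene symbol: genes whose symbol begins with Sec11, Sec13, Sec16, Sec22, Sec23, Sec24, Sec31, Sec61, Sec62, Sec63, Ssr, Spcs, Pdia, Copa, Copb, Cope, Copg, Copz, Srp followed by a digit, or Tmed, and *Calr*, *Canx*, *Dad1*, *Rpn1*, *Rpn2*, *Ddost*, *Sar1a* and *Sar1b*. The rule was made with earlier results of these data known. The question was how their RNA in axons compares with that in neurons, and how it differs after axons are cut. The match *Ssrp1* is a nuclear histone chaperone that shares only the letters of its symbol. It stays in the counts over 64 genes and is described apart.

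A protein bound for the membrane or for secretion is recognised by the signal recognition particle as it leaves the ribosome, threaded through the Sec61 channel into the ER, trimmed by signal peptidase, given sugar chains by oligosaccharyltransferase and folded by chaperones and protein disulfide isomerases. COPII-coated vesicles then carry it towards the Golgi, with p24 proteins as cargo receptors, and COPI-coated vesicles return material to the ER. Axons hold smooth ER along their length, while rough ER and Golgi stacks are mostly found in the cell body and dendrites.

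Cortical cultures were kept for 13 days in microfluidic devices whose compartments let axons grow apart from their cell bodies. RNA of 3 groups was hybridised to 13 GeneChip arrays, with no genetic change or drug named in the labels: uninjured axons (7 arrays, from 3 culture batches), regenerating axons cut on day 11 and left to regrow for 2 days (3 arrays), and neurons taken from the neuronal compartment of uninjured cultures (3 arrays). Material from 3 devices was pooled for each array, so an array is not 1 culture, and whether replicate arrays stem from separate cultures is not in the labels. P-values therefore measure only the spread between these arrays, which may be technical. Uninjured array 7 reads exactly 1 at every probe set, which leaves 6 measured uninjured arrays.

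Deposited values are ratios, given here as log2, so that 0 is the reference level, 1 is 2-fold above it and -1 is 2-fold below it. The denominator of the neuron and regenerating arrays is not given in the sources used here, and uninjured axons were taken as the reference. Every direction against uninjured axons rests on that reading. A gene's value is the log2 ratio averaged over its probe sets, the ± beside it is the standard error of the fit with 3 arrays in the group, and a gene was called where the adjusted p was below 0.05 (limma, Benjamini-Hochberg over all 14217 genes). Ratios carry no absolute level, so detection in axons and levels of different genes cannot be compared. In RNA from whole cultures or axons, fewer cells of a type and less RNA per cell cannot be told apart. All 3 comparisons share arrays or the reference. Culture batches are not tied to single arrays in the labels, so batch and group cannot be told apart.

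The labelled samples were checked against cell type markers. In neurons 11 of 12 neuron markers were higher than in uninjured axons (list median 3.48 on the log2 scale), but so were 10 of 11 astrocyte markers (median 3.23; *Gfap* 3.84 ± 0.24, *Sparcl1* 6.55 ± 0.39) and 9 of 10 genes of the nucleus. Of 11 microglial markers 10 were lower (median -0.85), and oligodendrocyte markers were split, 3 higher and 2 lower of 11. These counts stand beside 36.9% of all genes called higher and 23.0% called lower. The part of astrocytes in the neuron values below was not tested. Over the 6 uninjured arrays, median log2 values of these lists stayed between -0.21 and 0.12. Uninjured arrays 1 to 3 have a median ratio of 1 at every probe set, as do arrays 4 to 6, which ties these medians to near 0. They therefore do not check the cell content of the axon arrays.

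Secretory genes were mostly higher in neurons than in uninjured axons. Of 64 member genes, 50 were called higher, beside 36.9% of all genes tested, and 2 were called lower, beside 23.0% of all genes. The median member stood at 1.86 on the log2 scale and the median of all genes at 0.22. At least 2-fold higher at any p were 47 members, beside 31.1% of all genes. All 3 neuron arrays lay above all 6 uninjured arrays for 50 members, beside 41.8% of all genes, and below them for 5, beside 30.3%. With all arrays shifted to 1 common median, 47 members were higher and 4 lower, and over all genes the split moved from 5249 higher and 3271 lower to 4621 and 4269. Neuron array 2 was the lowest of the 3 in 49 members (76.6%, beside 50.4% of all genes). The median ratio of 18 hybridisation control probe sets was 0.275, 0.910 and 0.157 on neuron arrays 1, 2 and 3, and the GAPDH 3′ minus 5′ log2 difference, a sign of RNA quality, was -2.22, -1.74 and -2.09, with uninjured arrays between -0.15 and 0.48. That of beta-actin was 0.78, 0.42 and 0.60, with uninjured arrays between -0.05 and 0.23, the opposite sign to GAPDH. Both are differences of ratios, so they are relative to the reference and not absolute 3′ to 5′ values. Uninjured values are tied near 0 by the fixed medians of their sets. The part of these controls in the neuron result was not tested. Without neuron array 2, 51 members were higher and 2 lower, beside 5824 and 3500 of all genes.

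**Figure D1:**
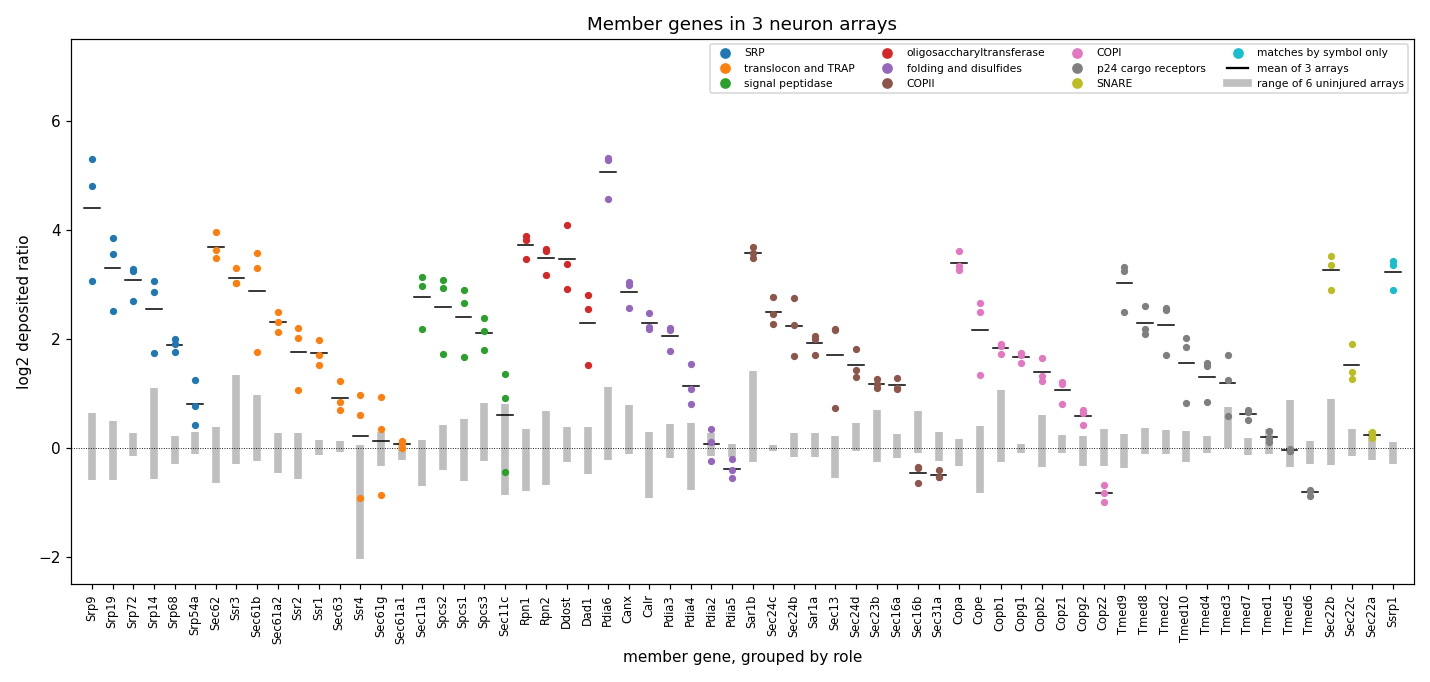
Each point is the log2 deposited ratio of 1 member gene on 1 of 3 neuron arrays, with the mean as a black bar, the range of 6 uninjured arrays in grey, and genes grouped by role on the horizontal axis. Most roles stand well above the grey range, while 5 genes lie below it, the lowest being *Copz2* and *Tmed6* at means of -0.84 and -0.82.

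After cutting, the same genes centred near the reference with a tail of low values. In regenerating axons 1 member, *Dad1*, was called lower, beside 0.689% of all genes, and no member was called higher, beside 0.0352%. At an unadjusted p under 0.05 the same limma fit gave 12 members lower, beside 8.77% of all genes, and 3 higher, beside 3.67%. The median over members was -0.11, and over all genes 0.02. A mean at least 2-fold below the reference, whatever its p, was found for 9 members (14.1%), beside 5.27% of all genes, and at least 2-fold above for none, beside 0.0844%. All 3 regenerating arrays lay below all 6 uninjured arrays for 16 members (25%), beside 12.5% of all genes, and above them for 3, beside 10.3%. These counts depend on the error given to the reference, here that of 1 array. A 2-group limma fit against the 6 uninjured arrays called 13 members lower and 3 higher, beside 1624 and 1094 of all genes. That fit treats the uninjured values as free, although the fixed median of each set leaves out differences between sets. The counts of non-overlapping arrays rest on the same values. In the fit with the error of 1 array, no member was lower without uninjured array 2 or 6 or without regenerating array 2 or 3. Of all genes 4, 8, 3 and 0 were then lower. Without uninjured array 1 or regenerating array 1, 4 members were lower, beside 256 and 361 of all genes. There were 3 without uninjured array 4, beside 141 of all genes, and 2 without uninjured array 3, beside 151.

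The 16 members whose regenerating arrays lay wholly below came from 7 of the 9 roles. They were *Srp14* of the signal recognition particle, *Sec61b*, *Sec61g*, *Ssr3* and *Ssr4* of the translocon, *Sec11c*, *Spcs1* and *Spcs2* of signal peptidase, *Dad1*, *Rpn1* and *Rpn2* of oligosaccharyltransferase, *Canx*, *Pdia5* and *Pdia6* of folding, *Sar1b* of COPII and *Tmed3* of the p24 family. The 3 wholly above were *Calr*, *Sec24d* and *Tmed6*. None of the 8 COPI or 3 SNARE genes was among the 16. Beside 12.5% of all genes, these are too few genes to set the 2 roles apart.

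**Figure D2:**
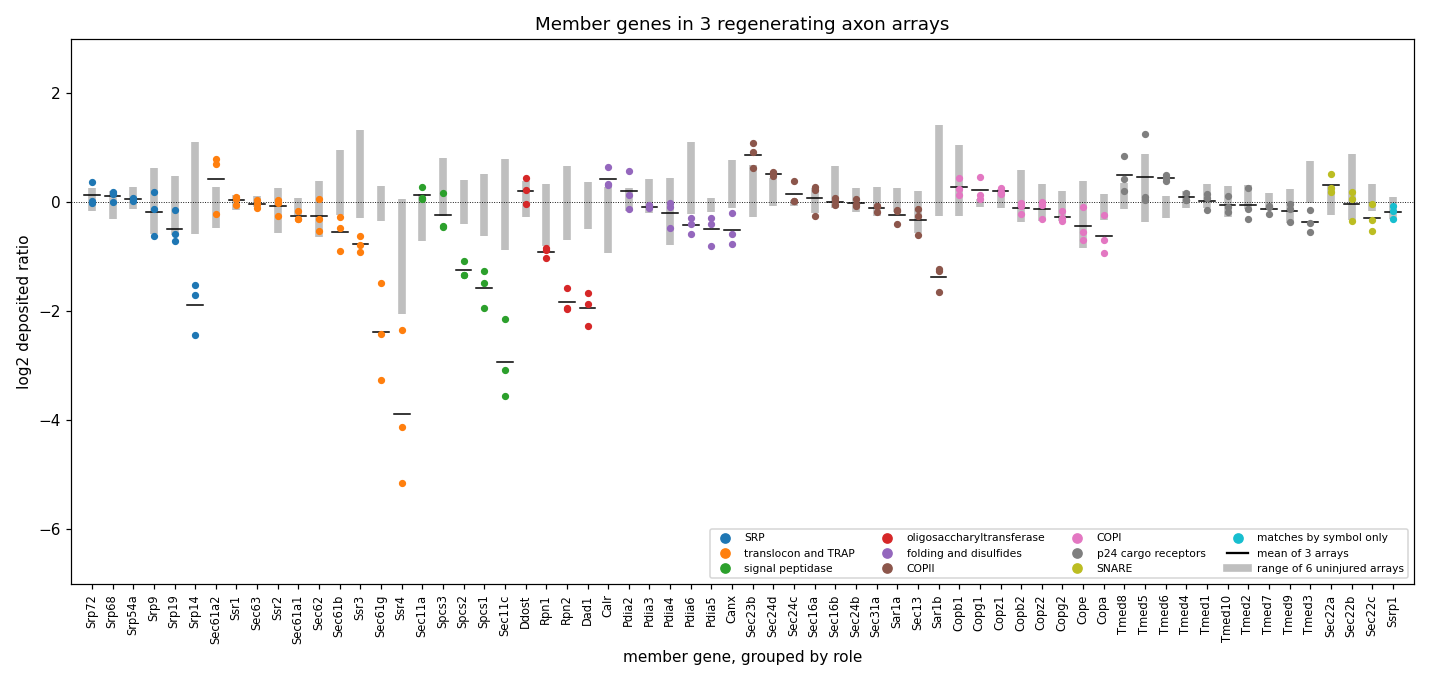
Log2 deposited ratios of member genes on 3 regenerating axon arrays (points), their means (black bars) and the range of 6 uninjured arrays (grey), grouped by role. Most genes overlap the grey range around 0, and low values gather among signal peptidase, oligosaccharyltransferase and single genes of other roles, down to a mean of -3.88 for *Ssr4*.

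Neuron markers also had low values after cutting. The median of 12 neuron markers was -0.83 on the log2 scale in regenerating axons (array medians -1.16 to -0.67). At least 2-fold below the reference were 5 of them, beside 5.27% of all genes, and none was called. Astrocyte markers had a median of -0.16 and microglial markers one of 0.35, with none called. The 3′ minus 5′ log2 difference was -0.48, -1.14 and -0.82 for GAPDH on regenerating arrays 1, 2 and 3, and 0.02, -0.63 and -0.40 for beta-actin. The median ratio of 18 hybridisation control probe sets was 1.14, 1.44 and 1.57 on the same arrays, with uninjured arrays between 0.928 and 1.10. The part of these in the low member values was not tested.

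The signal recognition particle binds the signal peptide and brings the ribosome to the ER. All 6 measured genes were higher in neurons, with a median of 2.81. Counts by role in neurons, here and below, stand beside 36.9% of all genes called higher and 23.0% called lower. *Srp9*, which with *Srp14* forms the domain that slows elongation, had log2 ratios of 4.81, 3.06 and 5.30 on neuron arrays 1, 2 and 3, and of -0.59 to 0.63 on the uninjured arrays. Its excess was 4.39 ± 0.69 (limma, adjusted p = 0.000668), and the groups did not overlap. *Srp19* stood at 3.30 ± 0.49. The GTPase subunit *Srp54a* was the closest to axons at 0.80 ± 0.29 (limma, adjusted p = 0.0344), and it lost that call when arrays were shifted to the same median (0.58), when its probe set with the highest mean stood for it, and without neuron array 1 or 3 or uninjured array 2 (highest adjusted p 0.0969 over 23 alternatives).

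In regenerating axons the partners *Srp9* and *Srp14* had unlike values. *Srp14* read -1.70, -2.44 and -1.52 on regenerating arrays 1, 2 and 3, with uninjured arrays between -0.58 and 1.10 (median 0.00). All 3 cut-axon arrays lay below every uninjured array, yet the mean of -1.89 ± 0.54 was not called (limma, adjusted p = 0.145). *Srp9* read -0.62, 0.20 and -0.13 and overlapped the uninjured range. The other 4 genes had means between -0.48 (*Srp19*) and 0.13 (*Srp72*). The difference between *Srp14* and *Srp9* was not tested.

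The Sec61 complex is the protein-conducting channel, Sec62 and Sec63 assist it, and the 4 Ssr proteins form TRAP, which sits beside it. Of these 10 genes, 7 were higher in neurons (median 1.74). *Sec62* was the highest with 3.63, 3.95 and 3.48 on the neuron arrays, an excess of 3.69 ± 0.33 (limma, adjusted p = 2.63e-05), well clear of its uninjured range of -0.64 to 0.39. *Sec61b*, the small beta subunit, stood at 2.87 ± 0.64 and *Ssr3* at 3.11 ± 0.51. *Sec63*, at 0.92 ± 0.22, lost its call when the median of its 4 probe sets was used (0.43).

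The 3 exceptions were the channel subunits *Sec61a1* and *Sec61g* and the TRAP subunit *Ssr4*. *Sec61a1*, which encodes the pore itself, had a mean of 0.06 ± 0.18 (limma, adjusted p = 0.775), but its 3 probe sets read -1.21, 0.20 and 1.20, so that mean hides opposite values. *Sec61g*, the gamma subunit, read 0.34, -0.87 and 0.92 (mean 0.13 ± 0.53). *Ssr4* read 0.59, -0.92 and 0.97 (mean 0.21 ± 0.84). In both, neuron array 2 lay below 0 and arrays 1 and 3 above it.

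*Ssr4* and *Sec61g* also had the lowest and the third-lowest regenerating mean of all members. *Ssr4* read -2.35, -5.16 and -4.13 on regenerating arrays 1, 2 and 3, against uninjured values from -2.05 to 0.05 (median 0.00). Uninjured array 1 alone gave the low end of that range, and regenerating array 1 lay close to it. The mean of -3.88 ± 0.99 ranked 40 from the lowest of all 14217 genes and was not called (limma, adjusted p = 0.114). Without regenerating array 1 it was -4.64 with an adjusted p of 0.0169 in the same limma fit. With any other single array left out, *Ssr4* stayed uncalled.

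*Sec61g* read -1.48, -3.25 and -2.41, with uninjured values between -0.34 and 0.29. The groups did not overlap, and the mean of -2.38 ± 0.51 missed the threshold (limma, adjusted p = 0.0741). The other TRAP genes had means of 0.04 (*Ssr1*), -0.07 (*Ssr2*) and -0.77 (*Ssr3*). *Sec61b* had a mean of -0.54, *Sec61a1* one of -0.26 and *Sec61a2*, a second alpha subunit, one of 0.43. Values therefore ran from -3.88 to 0.43 within this role.

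Signal peptidase cleaves the signal peptide on the inner side of the ER membrane. Of its 5 genes 4 were higher in neurons (median 2.40): the catalytic subunit *Sec11a* at 2.76 ± 0.39, and the accessory subunits *Spcs2* at 2.57 ± 0.48, *Spcs1* at 2.40 ± 0.47 and *Spcs3* at 2.10 ± 0.38. *Sec11c*, the alternative catalytic subunit, read 0.91, -0.45 and 1.35, with a mean of 0.60 ± 0.70 that was not called (limma, adjusted p = 0.468).

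The 2 catalytic subunits had unlike values after cutting as well. *Sec11c* read -2.13, -3.08 and -3.56 on the regenerating arrays, with uninjured values from -0.87 to 0.80, a mean of -2.92 ± 0.62 (limma, adjusted p = 0.0688). *Sec11a* read 0.07, 0.07 and 0.28, inside or just above its uninjured range of -0.71 to 0.15. Every regenerating value of *Sec11c* was below every uninjured value, while those of *Sec11a* lay in or above the uninjured range. The difference between these genes was not tested.

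The accessory subunits also had unlike values, and differences between them were not tested. *Spcs1* read -1.27, -1.48 and -1.95 (uninjured -0.61 to 0.52), with a mean of -1.57 ± 0.36 (limma, adjusted p = 0.0896). *Spcs2* read -1.33, -1.33 and -1.07 (uninjured -0.41 to 0.42), with a mean of -1.25 ± 0.28 (limma, adjusted p = 0.0821). *Spcs3* read -0.43, 0.16 and -0.45 and overlapped its uninjured range of -0.25 to 0.82. Non-overlapping low values were seen in 3 of the 5 genes, beside 12.5% of all genes, and none of the 5 was called.

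**Figure D3:**
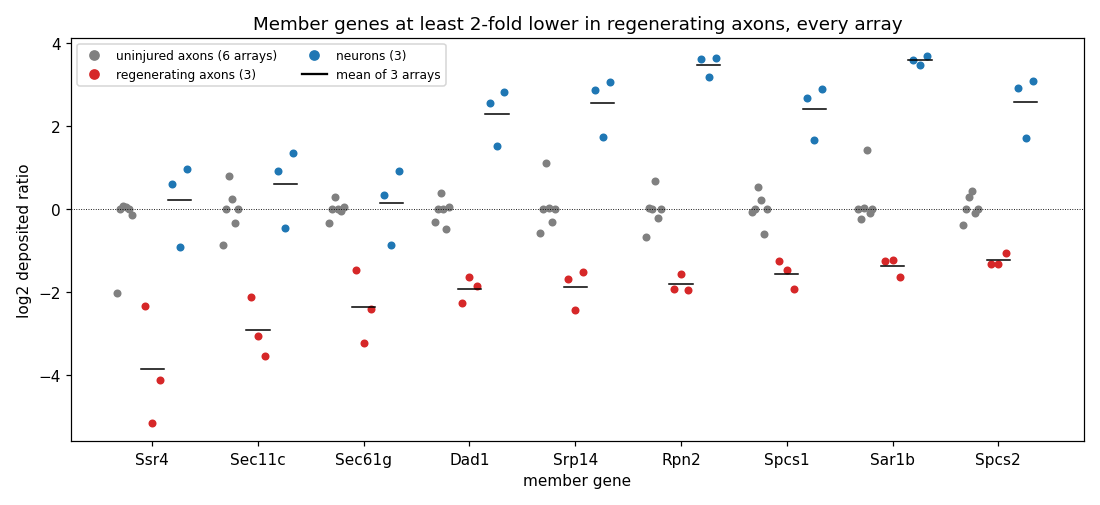
Log2 deposited ratio of the 9 member genes with a regenerating mean at least 2-fold below the reference, for every measured array: 6 uninjured (grey), 3 regenerating (red) and 3 neuron (blue), with the mean of each 3 as a bar. The red points lie below the grey ones in all 9 genes, closest for *Ssr4*, and the blue points straddle 0 only for *Ssr4*, *Sec11c* and *Sec61g*.

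Oligosaccharyltransferase moves a preformed sugar chain onto asparagines of the growing protein. All 4 members were higher in neurons and had the highest median of any role, 3.47. *Rpn1*, *Rpn2* and *Ddost*, structural subunits, stood at 3.72 ± 0.41, 3.47 ± 0.38 and 3.46 ± 0.38, and the small subunit *Dad1* at 2.28 ± 0.46 (limma, adjusted p = 0.0024). *Rpn1* read 3.89, 3.46 and 3.80 on the neuron arrays and -0.80 to 0.34 on the uninjured arrays.

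*Dad1*, named as a defender against cell death, was the only member called in regenerating axons. It read -2.28, -1.66 and -1.87 on regenerating arrays 1, 2 and 3, with uninjured values between -0.48 and 0.37 (median 0.00), and 2.54, 1.51 and 2.80 in neurons. The 3 groups did not overlap. The regenerating mean of -1.94 ± 0.32 is a 3.82-fold lower ratio (limma, adjusted p = 0.0359), seen in 3 of 3 arrays. The call was lost, at nearly the same size, without uninjured array 2 (adjusted p = 0.0688) or 6 (0.0645), without regenerating array 2 (0.0871) or 3 (0.0916), with 1 limma fit over all groups (0.0911), and after quantile normalization, where the mean was -2.34 (0.126). Adjusted p ran from 0.000101 to 0.126 over all alternatives.

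*Rpn2* was next, with -1.93, -1.57 and -1.97 on the regenerating arrays and -0.69 to 0.67 on the uninjured arrays. Its mean of -1.82 ± 0.37 had an adjusted p of 0.0607 (limma). *Rpn1* read -1.03, -0.88 and -0.83, just below its lowest uninjured value of -0.80 (mean -0.91 ± 0.39). *Ddost* read -0.04, 0.23 and 0.46 and overlapped the uninjured range throughout.

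The sequence just upstream of *Dad1* is shown because *Dad1* carries the only call after cutting. RefSeq gives it on GRCr8 as chr15:31667160-31667409, minus strand, the 250 bases that end at the transcription start. Capitals mark CCAAT on both strands, where the 2 matches overlap.
Dad1: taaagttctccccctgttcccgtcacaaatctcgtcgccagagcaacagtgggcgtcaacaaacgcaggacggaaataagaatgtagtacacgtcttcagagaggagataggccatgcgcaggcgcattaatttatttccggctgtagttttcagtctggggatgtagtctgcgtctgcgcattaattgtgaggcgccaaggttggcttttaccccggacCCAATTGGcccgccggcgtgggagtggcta
CCAAT, searched on both strands, was found upstream of 27 of the 57 members whose promoters could be matched (47.4%), and of 36.9% of 19005 coding genes over the same length. Median GC content was 59.6% and 54.8%. A match is a description of letters and no evidence of binding.

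Calreticulin and calnexin hold newly glycosylated proteins until they fold, and the Pdia proteins form and exchange disulfide bonds. Of the 7 genes 5 were higher in neurons (median 2.04). *Pdia6* had the largest excess of all members, with 5.29, 4.57 and 5.32 on the neuron arrays and -0.22 to 1.10 on the uninjured arrays. Its 5.06 ± 0.49 is 33.3-fold (limma, adjusted p = 4.24e-05). *Canx* stood at 2.86 ± 0.34, *Calr* at 2.29 ± 0.39 and *Pdia4* at 1.14 ± 0.41 (limma, adjusted p = 0.0381). The *Pdia4* call was lost in 4 alternatives, with arrays shifted to the same median and without neuron array 3, uninjured array 2 or uninjured array 3. *Pdia2*, described as pancreatic, and *Pdia5* read 0.07 ± 0.25 and -0.39 ± 0.19 and were not called.

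After cutting, the paired chaperones lay on opposite sides of the reference, neither of them called. *Calr* read 0.33, 0.65 and 0.33 (uninjured -0.93 to 0.28; mean 0.44 ± 0.39, limma adjusted p = 0.767). *Canx* read -0.76, -0.20 and -0.59 (uninjured -0.11 to 0.78; mean -0.52 ± 0.34, limma adjusted p = 0.634). The 3 *Canx* probe sets had regenerating means of -1.34, -0.84 and 0.63, so the value of the gene depends on the probe set. *Pdia6*, so high in neurons, read -0.39, -0.59 and -0.28.

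Among the 57 members with a matched promoter, *Calr* and *Canx* were the 2 whose upstream 250 bases held the ER stress response element, spelled as CCAAT and CCACG with any 9 bases between them and searched on both strands (3.51%, beside 0.0947% of 19005 coding genes). The 7 members without a matched promoter, among them *Pdia6*, *Pdia3* and *Sec61a1*, were not searched. Every such match also contains a CCAAT. The element is shown in capitals within the bases around it, from RefSeq on GRCr8, in the direction of the gene, at chr19:40213117-40213173 (plus strand) for *Calr* and chr10:35158049-35158107 (minus strand) for *Canx*.
Calr: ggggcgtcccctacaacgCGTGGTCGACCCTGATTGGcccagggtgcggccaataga
Canx: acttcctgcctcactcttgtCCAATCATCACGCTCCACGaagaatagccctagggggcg
In *Calr* the element lies on the opposite strand, and the capitals read its reverse complement. The second form of the element, ATTGG and CCACG with any 1 base between them, was upstream of none of the 57 members and of 0.0631% of coding genes. TGACGTGG, part of another element of the unfolded protein response, was upstream of 2 members (*Copb2* and *Srp19*, 3.51%) and of 0.6% of coding genes. TGACGTCA, the cyclic AMP response element, was upstream of 1 member (*Cope*, 1.75%) and of 2.08% of coding genes.

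COPII buds vesicles from the ER: Sar1 starts the coat, Sec16 marks exit sites, Sec23 and Sec24 form the inner layer and Sec13 and Sec31 the outer one. Of 10 genes 8 were higher in neurons (median 1.60). *Sar1b* read 3.58, 3.47 and 3.68, an excess of 3.58 ± 0.48 (limma, adjusted p = 0.000263), and its close relative *Sar1a* stood at 1.91 ± 0.21. The cargo-binding *Sec24c* and *Sec24b* stood at 2.49 ± 0.20 and 2.22 ± 0.34, and *Sec13* at 1.69 ± 0.51, with array 2 at 0.72 beside 2.18 and 2.17. The outer coat gene *Sec31a* had a mean of -0.50 ± 0.21 and *Sec16b* one of -0.46 ± 0.31, neither called (limma, adjusted p = 0.0655 and 0.214). *Sec23a*, the usual inner coat gene, had no probe set with a single symbol, and *Sec23b* was read in its place.

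After cutting, the Sar1 genes had unlike values. *Sar1b* read -1.25, -1.23 and -1.64, with uninjured values between -0.26 and 1.41, of which array 4 gave the highest. The mean of -1.38 ± 0.49 was not called (limma, adjusted p = 0.25), and without uninjured array 4 the same mean had an adjusted p of 0.0300. With any other single array left out, *Sar1b* stayed uncalled. *Sar1a* read -0.16, -0.14 and -0.40, inside its uninjured range of -0.18 to 0.26 but for array 3.

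*Sec23b* had the highest regenerating mean of all members, with 1.08, 0.92 and 0.62 and uninjured values from -0.27 to 0.69. It overlapped the uninjured range, and its 0.87 ± 0.33 was not called (limma, adjusted p = 0.282). *Sec24d* read 0.48, 0.54 and 0.56, above its highest uninjured value of 0.44 (mean 0.52 ± 0.20, limma adjusted p = 0.292). The remaining 6 COPII genes had means between -0.32 (*Sec13*) and 0.14 (*Sec24c*).

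The p24 proteins, encoded by the Tmed genes, pass cargo between coats in both directions. Of 10 genes 7 were higher and 1 lower in neurons (median 1.24). *Tmed9* stood at 3.01 ± 0.35, *Tmed2* at 2.26 ± 0.32 and *Tmed10* at 1.56 ± 0.41. *Tmed10* read 2.01, 0.81 and 1.85, with array 2 again the lowest. *Tmed3*, at 1.18 ± 0.42, lost its call without uninjured array 2 or neuron array 1 or 3 (limma, highest adjusted p 0.0759). *Tmed6* was lower, with -0.89, -0.78 and -0.80 against uninjured values of -0.29 to 0.12, a difference of -0.82 ± 0.20 (limma, adjusted p = 0.00693). *Tmed5* read -0.06, -0.06 and -0.03 and was not called.

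In regenerating axons the p24 genes had means between -0.35 (*Tmed3*) and 0.49 (*Tmed8*). *Tmed6* read 0.44, 0.39 and 0.51, above its whole uninjured range, and was not called (mean 0.45 ± 0.19, limma adjusted p = 0.373). *Tmed2* and *Tmed10* had means of -0.05 and -0.04. None of the 10 was at least 2-fold from the reference.

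COPI coats vesicles that return from the Golgi, and its gamma and zeta subunits are each encoded by a pair of genes. Of 8 measured genes 6 were higher and 1 lower in neurons (median 1.52). *Copa*, the alpha subunit, read 3.25, 3.33 and 3.60, an excess of 3.39 ± 0.22 (limma, adjusted p = 6.51e-06), with the uninjured arrays between -0.33 and 0.15. *Cope* stood at 2.16 ± 0.54, *Copb1* at 1.83 ± 0.41, *Copb2* at 1.39 ± 0.31 and *Copz1* at 1.06 ± 0.22.

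The zeta pair went in opposite directions. *Copz2*, the second zeta subunit, read -0.99, -0.69 and -0.83 in neurons against -0.34 to 0.34 in uninjured axons, a difference of -0.84 ± 0.25 (limma, adjusted p = 0.0160). It kept its call in 23 of 23 alternatives, with differences from -1.06 to -0.74. *Copg2* had a mean of 0.58 ± 0.25 that was not called (limma, adjusted p = 0.0663), from 2 probe sets that read -1.56 and 2.72.

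In regenerating axons no COPI gene was called. The lowest mean was that of *Copa*, -0.61 ± 0.26, with -0.23, -0.92 and -0.68 on the 3 arrays (limma, adjusted p = 0.364), and the highest that of *Copb1*, 0.28 ± 0.41. *Copb2*, *Cope* and *Copz1* had means of -0.10, -0.44 and 0.20.

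Sec22 proteins are SNAREs that fuse vesicles between ER and Golgi. *Sec22b* stood at 3.25 ± 0.41 and *Sec22c* at 1.51 ± 0.28 in neurons, and *Sec22a* at 0.24 ± 0.21, not called. In regenerating axons *Sec22b* read 0.20, -0.35 and 0.06, and the 3 means lay between -0.29 and 0.32. *Ssrp1*, the match by symbol only, stood at 3.22 ± 0.24 in neurons and -0.18 ± 0.19 in regenerating axons. Without it 49 of 63 genes were higher in neurons and the median was 1.83.

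**Figure D4:**
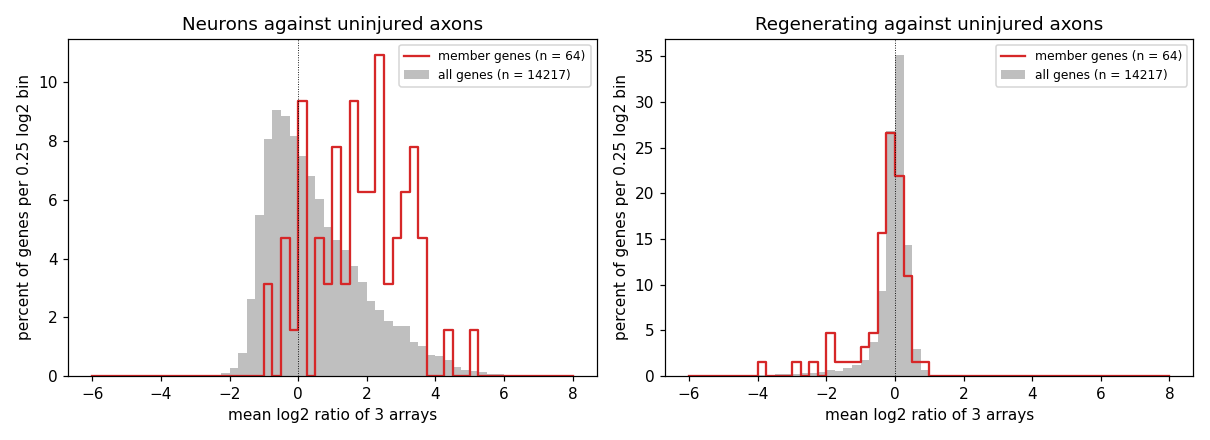
Share of genes, in percent, in bins of 0.25 on the log2 scale, for 64 member genes (red) and all 14217 genes (grey), by mean log2 ratio in neurons (left) and in regenerating axons (right). The members' median is 1.86 in neurons beside 0.22 for all genes, and -0.11 in regenerating axons beside 0.02.

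Set directly against neurons, regenerating axons had 53 members lower, beside 44.2% of all genes, and 4 higher, beside 31.3%. The lowest were *Pdia6* at -5.48 ± 0.22, *Rpn2* at -5.30 ± 0.19 and *Sar1b* at -4.95 ± 0.16. The 4 higher were *Tmed6* (1.27 ± 0.13), *Copz2* (0.72 ± 0.15), *Sec16b* (0.48 ± 0.14) and *Sec31a* (0.40 ± 0.13; limma, adjusted p = 0.0224), which turned to -0.86 when its probe set with the highest mean stood for the gene. This fit uses the arrays of both other comparisons and assumes that both groups were divided by the same reference. *Sec11c*, *Sec61g* and *Ssr4*, whose neuron means were uncalled against uninjured axons, were lower in regenerating axons than in neurons at -3.53 ± 0.51, -2.51 ± 0.54 and -4.09 ± 0.74 (limma, adjusted p = 0.000466, 0.00364 and 0.00143).

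Genes of the pathway outside the symbol rule were read from 8 lists of related functions, whose counts in neurons stand beside 36.9% of all genes higher and 23.0% lower. In neurons the other ER chaperones were higher in 14 of 22 and lower in none, among them the ER Hsp70 *Hspa5* (5.62 ± 0.79) and the ER Hsp90 *Hsp90b1* (4.42 ± 0.31). Translocon and tail-anchor genes, including the ER membrane complex, were higher in 14 of 16 (*Emc7* 4.04, *Emc6* 3.55). ER exit and retrieval genes were higher in 20 of 23 (*Yipf5* 3.70, *Tfg* 3.60), and ER-shaping genes in 12 of 13, led by the reticulon *Rtn4* (5.42 ± 0.38), with the atlastin *Atl3* lower at -0.45 ± 0.17. The *Atl3* call did not hold without any 1 uninjured array or without neuron array 1 or 2, with 0.1 added to each ratio, nor with its probe set of highest mean (-0.09) or the median of its probe sets (-0.22; limma, highest adjusted p 0.678).

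The remaining 4 lists each held genes lower in neurons, except ER-associated degradation. N-glycosylation genes were higher in 10 of 22, a share near that of all genes, and lower in 1 (*Tusc3*, an oligosaccharyltransferase subunit, 5.42; *Man1a2*, a mannosidase, -0.56). *Man1a2* lost its call without neuron array 1 or 3 and with its probe set of highest mean (-0.22). ER-associated degradation genes were higher in 11 of 16 (*Vcp*, the extracting ATPase, 4.08; *Selenos* 3.27). Unfolded protein response genes were higher in 8 and, near the share of all genes, lower in 4 of 15, with the transcription factors *Atf4* at 4.62 ± 0.50 and *Xbp1* at 2.53 ± 0.37 above, and *Creb3l2* at -0.99 ± 0.19 and *Creb3l1* at -0.71 ± 0.26 below. *Creb3l1* lost its call without uninjured array 3 or neuron array 1 or 3. Golgi genes were higher in 25 and lower in 2 of 39, with the GTPases *Arf4* at 4.55 and *Arf1* at 4.48, and the SNARE *Vti1b* at -0.88 and the Arf activator *Gbf1* at -0.42. *Vti1b* lost its call after quantile normalization and without uninjured array 1 or neuron array 1 or 2. *Gbf1* lost its call without any 1 uninjured array or neuron array 1, with 1 fit over all groups and with 0.1 added, and its direction turned to 1.38 when its probe set with the highest mean stood for the gene.

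After cutting, 1 gene of these 8 lists, each of 13 to 39 measured genes, was called, beside 0.689% of all genes lower and 0.0352% higher. This was *Ube2j1*, an ER ubiquitin-conjugating enzyme, at -2.29 ± 0.30 (limma, adjusted p = 0.0306). The call was lost, with an adjusted p of up to 0.0871, without uninjured array 2 or 6 or regenerating array 2 or 3. Low values that were not called included *Ppib*, an ER prolyl isomerase, at -2.75 ± 0.65, *Cnih1*, a COPII cargo receptor, at -2.63 ± 0.69, *Reep5* and *Rtn1*, which shape tubular ER, both at -2.47, *Emc6* at -2.26 ± 0.57 and *Hspa5* at -1.97 ± 0.77 (limma, adjusted p between 0.0521 for *Reep5* and 0.309 for *Hspa5*). Each list held 0 to 3 genes at least 2-fold below the reference at any p, beside 5.27% of all genes. The unfolded protein response genes had means between -0.84 (*Atf4*) and 0.50 (*Creb3l1*) with none called. The median of each list lay between -0.26 and 0.14.

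The 23 members with several probe sets did not always give 1 value. In neurons the sign differed between probe sets of 5 genes: *Pdia3* (-0.49 and 4.56), *Copg2*, *Tmed7* (-0.77, -0.65 and 3.25), *Sec61a1* and *Sec31a* (-1.36 and 0.36). *Pdia3*, a disulfide isomerase that works with calreticulin, and *Tmed7* were called higher by their means of 2.04 ± 0.25 and 0.61 ± 0.19. *Tmed7* turned to -0.65 when the median of its probe sets was used. Probe sets lay more than 2 apart in 10 genes in neurons and in none in regenerating axons, where the sign differed in 16 genes, mostly around 0. By probe set, 70 of 96 were higher and 6 lower in neurons, beside 28.4% and 27.5% of 31042 probe sets, and 1 was lower in regenerating axons, beside 0.335%.

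**Figure D5:**
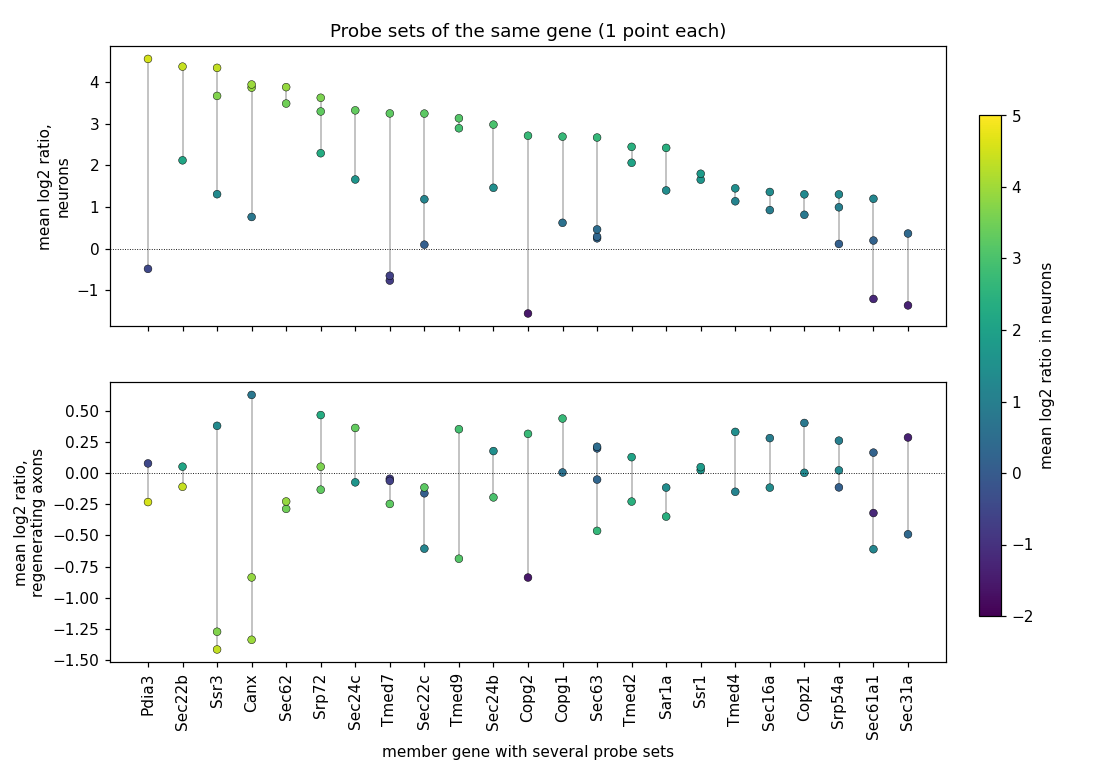
Mean log2 ratio of each probe set of the 23 member genes with several probe sets, in neurons (top) and regenerating axons (bottom), coloured by the neuron value and ordered by each gene's highest neuron value. *Pdia3*, *Tmed7*, *Copg2*, *Sec61a1* and *Sec31a* have probe sets on both sides of 0 in neurons, and the *Canx* and *Ssr3* probe sets with the highest neuron values lie lowest in regenerating axons.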

How the data were processed

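PolyA RNA was amplified in 2 rounds and hybridised to GeneChips, per the labels' protocols. RMA, a background correction, normalisation and summary of probe signals, is named without a version in the submitters' processing notes. The deposited values are linear ratios, 31099 probe sets by 13 arrays, made by the authors in a way not given in the sources used here. Uninjured arrays 1 to 3 have a median of 1 at every probe set, as do arrays 4 to 6 (tolerance 1e-04), and array 7 is 1 throughout. Differences between these 3 sets are therefore not in the values. A ratio below 1 or above 1 can come from background as well as from signal, and signals were not used here. The number of arrays limits the precision.

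Symbols came from the platform's annotation: 20826 probe sets with 1 symbol gave 14217 genes. All 96 member probe sets had an identifier in RefSeq's GRCr8 table, with the same symbol. *Calr*, *Canx* and *Dad1* were read as whole symbols, which leaves out *Calr3* and *Calr4*. Ratios were taken to log2 without a pseudocount or filter. The mean of 3 arrays was tested against 0 with limma 3.58.1 (R 4.3.3), with the spread pooled over the group and the 6 uninjured arrays, the latter around their own set's mean, and with an error equal to that of 1 array for the reference. Regenerating axons against neurons used 2-group limma. Benjamini-Hochberg adjustment ran over all genes, threshold 0.05. The method was tested on simulated data.

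The members and lists were chosen with earlier results of these data known. Named genes are the members called or of lowest p after cutting (8), the 8 highest and 8 lowest in neurons, 22 fixed members, members whose probe sets disagree, and up to 2 genes at each end of each list outside the rule; other members are named to complete a role, after their values were seen. Alternatives changed the reference's error, the samples fitted, centring, quantile normalization, the value of genes with several probe sets, cross-hybridising probe sets, 0.1 added to each ratio, a filter on genes at the table's lowest ratio, robust eBayes, single arrays and a replicate block. The main fits did not pair arrays by replicate number, as the labels do not say whether same-numbered arrays share cultures. Promoters of 57 of 64 members were matched by gene identifier in RefSeq's GRCr8, and a gene with several promoters was counted once. Protein sequences were not used here.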

Additional observations from a re-analysis of the deposited data

Results flagged for a closer look

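For 12 of 64 members (18.8%), 1 of the 6 uninjured arrays stood apart from the other 5 by a gap above Dixon's critical value for 6 samples. The same held for 17.2% of all 14217 genes, so the share is near that of genes in general. Chance flags about 1 in 20 groups of free samples, but that rate does not apply here, because uninjured arrays 1 to 3 have a median ratio of 1 at every probe set, as do arrays 4 to 6, so that their values are not free. Array 4 was the one apart in 5 members, always high: *Sar1b* (log2 ratio 1.41), *Ssr3* (1.33), *Copb1* (1.05), *Canx* (0.78) and *Sec24d* (0.44). Array 1 was apart in *Ssr4* (-2.05) and *Tmed5* (0.88), and array 3 in *Srp14* (1.10). Array 5 was apart in *Calr* (-0.93), and array 6 in *Sec11a* (-0.71), *Ssr2* (-0.57) and *Ssrp1* (-0.31). Array 4 was the highest of 6 in 23 members (35.9%), beside 18.5% of all genes. *Sar1b*, *Ssr4* and *Srp14* are among the 9 members with the lowest regenerating means, and none of these 3 was called.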

How the results depend on the processing

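Most member calls kept their side. Over single members and alternatives, neuron results stayed called on the same side or stayed uncalled in 1428 cases. They gained a call in 29, lost it in 14 and reversed in 1. For regenerating axons these numbers were 1393, 73, 6 and 0, and for regenerating axons against neurons 1010, 5, 7 and 2. A value uncalled in both the main fit and the alternative counts as kept, also where its sign changed. In regenerating axons *Dad1* was the only member called. Nearly all kept cases there were thus uncalled, and the 6 lost calls were those of *Dad1*. The 50 members higher in neurons were 47 to 51 with 1 array left out at a time, and the 2 lower were 2 to 3. Over all genes the 5249 higher were then 4770 to 5824, and the 3271 lower were 2711 to 3500. Members lower in neurons numbered 5 with no error of the reference or a 2-group fit against the 6 uninjured arrays, 6 by single called probe sets (9.38%, beside 28.2% of all genes), and 4 with a reference error of 3 arrays, arrays at the same median, the replicate block, or uninjured arrays 1 to 3 as the group (an alternative chosen after seeing the data). Where 5 members were lower, all genes lower numbered 4882 and 4710. Where 4 were, they numbered 4262, 4269, 3984 and 4261, in the order named. Members lower after cutting numbered 12 with no error of the reference, 9 with an error of 3 arrays, 13 in the 2-group fit, 10 against uninjured arrays 1 to 3, 6 after quantile normalization, 6 with the replicate block, 2 with 0.1 added and 0 with 1 fit over all groups, and 0 to 4 with 1 array left out. Over all genes the 98 lower were then 1990, 1018, 1624, 970, 399, 319, 121 and 48, and 0 to 361. Members higher after cutting numbered 4, 2, 3 and 3 in the first 4 of these, beside 1588, 300, 1094 and 332 of all genes. With any 1 array left out they numbered 0, beside 0 to 15 of all genes. Against neurons, members higher in regenerating axons numbered 8 by single called probe sets (12.5%, beside 38.8% of all genes) and 2 to 4 with 1 array left out, and those lower stayed at 53. With 1 array left out, 3838 to 4504 of all genes were higher and 5720 to 6609 lower. With the probe set of highest mean, *Gbf1* turned to 1.38 in neurons and, for regenerating axons against neurons, *Gbf1* to -1.56, *Emc1* to -0.70 and *Sec31a* to -0.86. With the median over probe sets, *Tmed7* turned to -0.65 in neurons and 0.57 in regenerating axons against neurons. A smaller error of the reference gives more calls by construction, and for the other settings the cause was not tested. Deviations of same-numbered arrays from their group means correlated at -0.39 to 0.19. With 3 arrays a group and uninjured medians fixed at 1, these values cannot settle whether same-numbered arrays share a culture. The limits are an unstated denominator, no signal over background, 3 arrays a group and pooled devices.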
